A study of Mus musculus with 22 samples.

Results

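Livers of male Slc10a1 knockout (KO) mice aged 4 weeks were compared with livers of male wild-type (WT) mice of the same age and of the C57BL/6 strain, 3 libraries against 3. They make up 6 of the 22 liver RNA libraries of the study, chosen by the genotype and age in their titles. The other 16 libraries, from KO and WT livers at 8 weeks (6 and 4) and 20 months (3 and 3), were used only to set the 4-week change beside later ages. Messenger RNA isolated on beads from frozen livers was sequenced on an Illumina HiSeq 2500 instrument. KO mice carry the Slc10a1-/- genotype and no other agent or allele is named, and the labels say nothing on litters, feeding or the part of the gene deleted. P-values therefore measure the spread between these samples.

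Slc10a1 encodes NTCP, the sodium-coupled carrier that takes conjugated bile acids up from the sinusoids. Without it, bile acids stay longer in the circulation, while the liver still takes some up through organic anion carriers. The mouse liver at 4 weeks is also passing through puberty. At that age pulses of growth hormone in males begin to set the male pattern of hepatic transcripts, such as the major urinary proteins, through the receptor GHR and the factor STAT5B.

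Each 4-week library held 5496425 to 6956124 counts in genes, so a count of 0 in 1 library allows up to 0.431 to 0.546 CPM before scaling. CPM values below are read counts relative to the library total, with that total adjusted by the TMM method. Albumin (Alb) gave up to 12.26% of a library's counts and Hnf4a, a transcription factor that defines hepatocytes, did not differ past the threshold (log2 fold change -0.05, SE 0.28, adjusted p = 0.922). Xist, the RNA of the inactive X chromosome, had 1 to 4 counts per library. Markers of muscle were too low to be tested, and 1 of 15 pancreas markers and 1 of 12 kidney and intestine markers were tested. KO library 1 stood apart. Its log2 levels correlated with KO libraries 2 and 3 at Pearson 0.915 and 0.932 across genes, against 0.967 between those 2 libraries and 0.963 to 0.984 among WT libraries. Alb took 25110, 133100 and 99740 CPM in KO libraries 1 to 3, against 92210, 106900 and 92280 CPM in WT libraries 1 to 3. The counts that lead each comparison are given with and without KO library 1, and values per liver are listed in the order of libraries 1 to 3.

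Slc10a1 itself (ENSMUSG00000021135, GRCm38 chr12:80953183-80968705, minus strand) checked the labels. It stood at 99.7, 237 and 131 CPM in KO livers, against 543, 632 and 606 CPM in WT livers. Every KO liver lay below every WT liver, yet transcripts counted to the gene were not lost. The log2 fold change was -1.93 (SE 0.33, adjusted p = 0.0117), and its adjusted p rose to at most 0.057 when KO library 3 or WT library 2 or 3 was left out.

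Across the liver, 576 of 11144 genes tested rose and 624 fell in KO livers, by edgeR's quasi-likelihood test at an adjusted p under 0.05. Called genes thus made up 10.8% of those tested, 5.17% higher and 5.6% lower. Of the called genes, 58 rose and 72 fell by at least 3 on the log2 scale. The groups did not overlap for 35.3% of all genes tested and for 1199 of the 1200 called genes. Separate groups, where given below, therefore add little to a call. The median log2 fold change over all genes was 0.005. Without KO library 1 the test called 1046 genes higher and 966 lower of 11439 tested. Of these, 1129 were shared with the 1200 of all 6 libraries and 0 went in the opposite direction. Counts of list members without KO library 1 are to be read beside this gain over all genes. Fewer genes were called when any other library was left out. Counts higher and lower were 522 and 520 without KO library 2, 208 and 221 without KO library 3, and 321 and 368 without WT library 1. They were 85 and 149 without WT library 2, and 65 and 119 without WT library 3. Such fits also hold fewer libraries, and the part of lost power was not tested. A core of 166 genes, 55 higher and 111 lower, was called in all 7 fits, with all 6 libraries and without each in turn.

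**Figure D1:**
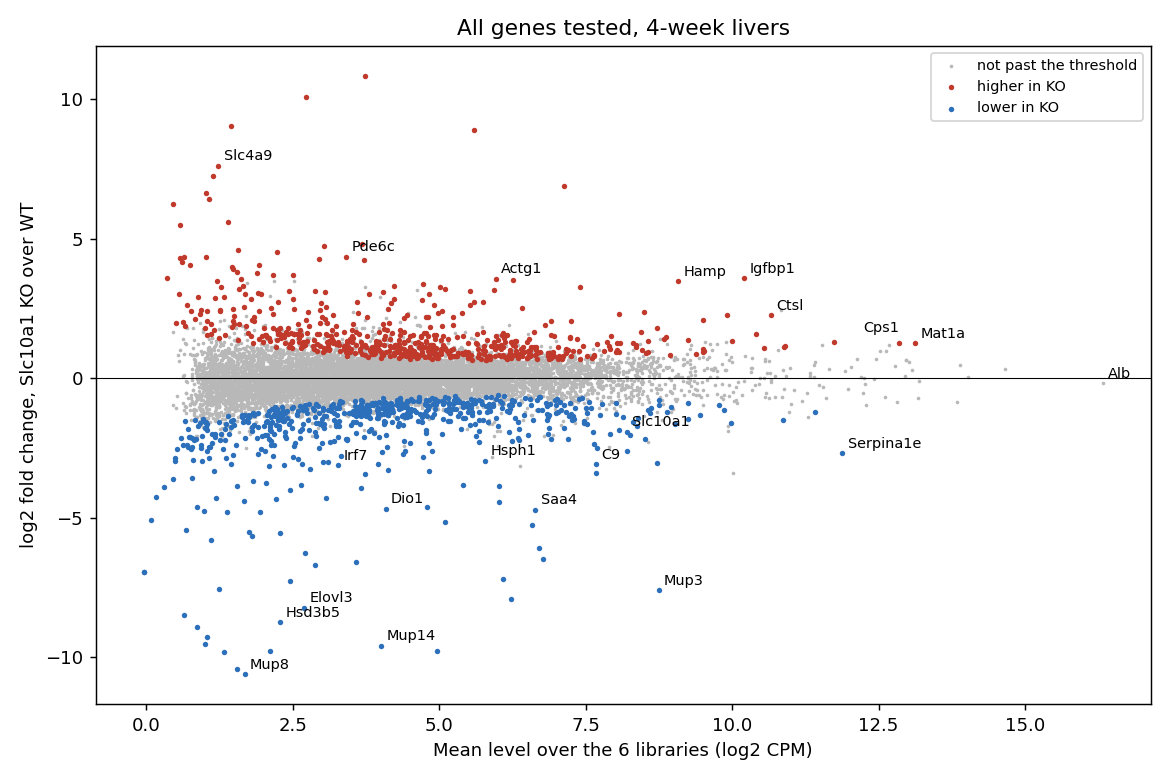
Each point is a gene tested at 4 weeks, with its mean level over the 6 libraries (log2 CPM, horizontal) and its log2 fold change of Slc10a1 KO over WT (vertical). Red points were called higher in KO (576), blue points lower (624) and grey points did not pass; the lowest named points are major urinary protein genes and Alb sits near 0 at the far right.

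Some of the genes with the largest rise were at low levels in WT livers. Slc4a9, an anion exchanger known from kidney, had 18.23, 10.74 and 13.96 CPM in KO livers, against 0.171, 0.0 and 0.0 CPM in WT livers (log2 fold change 7.62, SE 0.60, adjusted p = 0.00034). Pde6c, a phosphodiesterase subunit of cone photoreceptors, had 36.3, 52.9 and 48.6 CPM in KO livers, against 1.54, 2.53 and 2.56 CPM in WT livers (4.35, SE 0.28, adjusted p = 0.000134). Every KO liver lay above every WT liver for both genes, which the rule that names them required. Atp6v0d2, a subunit of the vacuolar proton pump, rose by 4.26 (SE 0.34, adjusted p = 0.000359) and Zc3h6, a zinc finger gene, by 4.04 (SE 0.39, adjusted p = 0.00106). Smoc2, a secreted calcium-binding matrix protein, rose by 4.80 (SE 0.68, adjusted p = 0.00605), and Bmper, a secreted regulator of bone morphogenetic proteins, by 4.74 (SE 0.66, adjusted p = 0.00599). These 6 genes kept their calls without each library in turn. Tppp3 (7.25), Igdcc4 (6.63), Btc (5.60), Hamp2 (4.53) and Bex1 (4.35) were also called. Their calls were less steady: Igdcc4 was lost without WT library 3, Tppp3 without WT library 2 or 3, Bex1 also without KO library 3, Btc whichever WT library was left out, and Hamp2 without KO library 3 or 1 of the WT libraries (adjusted p up to 0.16). Btc, the growth factor betacellulin, was high in KO library 1: it had 64.2, 3.58 and 3.15 CPM in KO livers, against 1.03, 0.475 and 0.0 CPM in WT livers.

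The deepest falls lay among the major urinary proteins, small lipocalins made by male liver and passed into urine, whose genes sit together on chromosome 4. All 17 Mup genes tested fell, with log2 fold changes of -10.62 to -5.08 and a median of -7.59, and all 17 calls held without each library in turn. Their summed level was 185.1, 49.9 and 32.3 CPM in KO livers, against 12620, 13290 and 16210 CPM in WT livers. Mup3 (chr4:62083476-62087342) had 73.2, 25.8 and 9.24 CPM in KO livers, against 6445, 7442 and 7093 CPM in WT livers (-7.59, SE 0.79, adjusted p = 0.00156). KO library 1 kept the most of it, though still far below any WT liver. Mup8, Mup1, Mup12 and Mup16 had no count in any KO liver. Against the limit of 3 counts over the KO group they were at least 183.3-fold, 159.7-fold, 105.7-fold and 72.4-fold lower. Their log2 fold changes (-10.62, -10.42, -9.83 and -9.28) rest on these counts of 0 and are not measured beyond those limits. They include the lowest value of the range above. Copies in this cluster are nearly identical, so reads may be split between them and the level of any 1 member is uncertain. The other genes among the 12 largest falls were Hsd3b5, a steroid dehydrogenase of male liver (0.312, 0.0 and 0.197 CPM in KO livers, against 7.35, 107.6 and 141.7 CPM in WT livers; -8.75, SE 1.33, adjusted p = 0.00799), and Elovl3, an elongase of very long fatty acids (-8.23, SE 0.55, adjusted p = 0.00015). WT library 1 had the lowest Hsd3b5 of the WT livers, 7.35 CPM.

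Genes typical of male and female mouse liver moved in opposite directions. Of 26 male-biased genes tested, 19 fell (median -2.27; 20 without KO library 1), and of 22 female-biased genes 10 rose and 1 fell (median 1.48; 11 and 2 without KO library 1). Beside Atp6v0d2, the organic anion carrier Slc22a26 rose (58.3, 61.6 and 131.9 CPM in KO livers, against 11.5, 12.8 and 6.54 CPM in WT livers; 3.03, SE 0.40, adjusted p = 0.00443). Its relative Slc22a30 fell (8.10, 11.3 and 7.28 CPM in KO livers, against 76.9, 90.4 and 98.5 CPM in WT livers; -3.31, SE 0.24, adjusted p = 0.000191). These carriers of 1 family moved in opposite directions with no overlap between groups. Hao2, a peroxisomal hydroxy acid oxidase (3.19, SE 0.56), and Cyp2b9, a female-typical cytochrome P450 (3.37, SE 0.63), rose too. Counts of male-biased members lower were 20, 20 and 17 without KO libraries 1, 2 and 3, and 19, 14 and 13 without WT libraries 1, 2 and 3. The female-biased count was 11, 10 and 6, and 7, 4 and 3, in the same order. Hao2 was lost without WT library 3 and Cyp2b9 whichever WT library was left out (adjusted p up to 0.0859).

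The growth hormone axis itself showed a mixed picture. Cux2, a repressor that is female-typical in mouse liver, had 33.7, 8.85 and 15.7 CPM in KO livers, against 4.10, 0.158 and 0.427 CPM in WT livers (log2 fold change 3.68, SE 0.85, adjusted p = 0.031). Igfals, the acid-labile subunit that holds IGF1 in serum, fell to 3.74, 5.27 and 7.08 CPM in KO livers, against 29.1, 56.8 and 48.4 CPM in WT livers (-3.07, SE 0.33, adjusted p = 0.00182). Igfbp1 (chr11:7197782-7202546), a binding protein that rises when insulin is low, reached 7365, 2199 and 3533 CPM in KO livers, against 308.9, 371.9 and 414.6 CPM in WT livers (3.58, SE 0.46, adjusted p = 0.00434). Both groups were separate for each of these 3 genes, and Igfals and Igfbp1 kept their calls without each library. The growth hormone receptor Ghr had 158.5, 203.2 and 281.8 CPM in KO livers, against 314.9, 452.0 and 433.7 CPM in WT livers and missed the threshold (-0.90, SE 0.27, adjusted p = 0.0655), though it was called lower by DESeq2 and with no low-count filter (adjusted p = 0.0234 for each) and with library totals alone (adjusted p = 0.048). Igf1, the main hormone of the axis, had 431.9, 313.1 and 315.4 CPM in KO livers, against 524.9, 573.7 and 444.1 CPM in WT livers (-0.54, SE 0.23, adjusted p = 0.158); without KO library 1 it was called lower (-0.70, adjusted p = 0.0353). Stat5b (0.25, adjusted p = 0.676), the feedback inhibitors Socs2 (2.33, adjusted p = 0.0691) and Cish (0.66, adjusted p = 0.534) and the male-typical repressor Bcl6 (-1.18, adjusted p = 0.264) did not pass either. Socs2 was called higher without KO library 2 (adjusted p = 0.022) and with no low-count filter. It was high in 1 liver, with 136.2, 15.1 and 31.7 CPM in KO livers, against 15.39, 12.98 and 8.11 CPM in WT livers. Stat3, the factor of cytokine and leptin signals, rose (1.13, SE 0.23, adjusted p = 0.0225). In all, 2 of 15 genes of growth hormone signalling rose (13.3% called, against 10.8% of all genes). Of 12 genes of the insulin-like growth factor axis 1 rose and 1 fell (16.7% called), or 4 and 3 without KO library 1. Cux2 lost its call without KO library 3 or WT library 2 or 3 and Stat3 without these or WT library 1 (adjusted p up to 0.125).

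Enzymes of steroid hormones and foreign compounds changed in both directions in some families and in 1 direction in others. Of 15 glucuronosyltransferases, which make compounds soluble by adding a sugar acid, 7 fell and 8 did not pass (median -0.88; 9 lower and 2 higher without KO library 1). Among 22 genes of steroid hormone metabolism 7 fell and 1 rose (median -0.76; 8 and 2 without KO library 1). Srd5a1, the 5-alpha reductase that reduces testosterone and other steroids, had 0.935, 2.45 and 1.97 CPM in KO livers, against 35.2, 35.3 and 34.4 CPM in WT livers (-4.31, SE 0.31, adjusted p = 0.000191). Hsd17b2 (-1.21, SE 0.21) and Hsd17b11 (-1.42, SE 0.27), both oxidoreductases of sex steroids, fell, whereas Hsd3b1, a steroid dehydrogenase at low levels in both groups, rose (3.03, SE 0.54). Of 30 family 2 cytochromes P450, 6 rose and 6 fell (median -0.01; 7 and 7 without KO library 1). Cyp2f2, a periportal enzyme, was lower at 69.0, 71.0 and 67.6 CPM in KO livers, against 250.1, 325.4 and 374.4 CPM in WT livers (-2.19, SE 0.22, adjusted p = 0.00126). Cyp2c39 was higher at 28.2, 49.5 and 44.0 CPM in KO livers, against 7.69, 4.75 and 2.56 CPM in WT livers (3.03, SE 0.39, adjusted p = 0.004). Cyp2c23 (-2.18, SE 0.24) and Cyp2j5 (-1.72, SE 0.25), epoxygenases of arachidonic acid, and Cyp2d9 (-1.46, SE 0.24), a male-typical steroid hydroxylase, also fell. In family 4, 3 of 13 members fell, among them Cyp4a12a, the male hydroxylase of arachidonic acid, which had 2.49, 0.377 and 0.590 CPM in KO livers, against 161.2, 97.2 and 99.8 CPM in WT livers (-6.59, SE 0.53, adjusted p = 0.000359).

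Carboxylesterases, serine hydrolases of esters and lipids, fell in 3 of 11 members and rose in 1 (median -1.09; 4 and 2 without KO library 1). Ces3a had 101.0, 210.4 and 141.2 CPM in KO livers, against 997.1, 1354 and 1367 CPM in WT livers (-3.04, SE 0.33, adjusted p = 0.0018). Ces1f fell by 4.43 (SE 0.93, adjusted p = 0.0227) with KO livers at 1.25, 43.5 and 15.5 CPM, against 276.8, 576.7 and 437.3 CPM in WT livers. Of 21 glutathione transferases 2 rose, 1 fell and 18 did not pass (14.3% called, against 10.8% of all genes; 7 higher and 1 lower without KO library 1). Gstt3 rose (2.79, SE 0.30, adjusted p = 0.00173) and Gstp1, a male-biased member, fell (-2.51, SE 0.30, adjusted p = 0.00325). Aox3, an aldehyde oxidase, fell (-2.15, SE 0.25, adjusted p = 0.00288). In thyroid hormone metabolism, Dio1, the liver deiodinase that activates thyroxine, had 0.312, 13 and 1.38 CPM in KO livers, against 72.0, 141.5 and 158.5 CPM in WT livers (-4.68, SE 0.91, adjusted p = 0.0182). The receptor Thrb did not pass (-0.48, adjusted p = 0.156). In vitamin A metabolism 4 of 24 genes fell and 1 rose (median 0.03; 6 and 3 without KO library 1), with Adh4 (-1.44, SE 0.24) and Aldh1a1 (-1.65, SE 0.27), which oxidise retinol and retinal, lower. Leaving out KO library 3 or WT library 2 or 3 ended the calls of Ces1f, Dio1 and Hsd17b11. Cyp2d9 and Adh4 were lost without WT library 3, Aldh1a1 without WT library 2 or 3, Hsd17b2 without KO library 3 or WT library 3 and Hsd3b1 without KO library 3 or WT library 2 (adjusted p up to 0.0865 over these genes). The steroid count lower ran at 5 and 2 without KO libraries 2 and 3 and at 5, 3 and 2 without WT libraries 1, 2 and 3. In the same order, the count of family 2 cytochromes P450 higher was 5, 2, 4, 1 and 1, that of family 4 lower was 4, 2, 2, 2 and 2, that of carboxylesterases lower was 3, 1, 2, 1 and 1, and that of vitamin A genes lower was 4, 2, 2, 1 and 0.

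**Figure D2:**
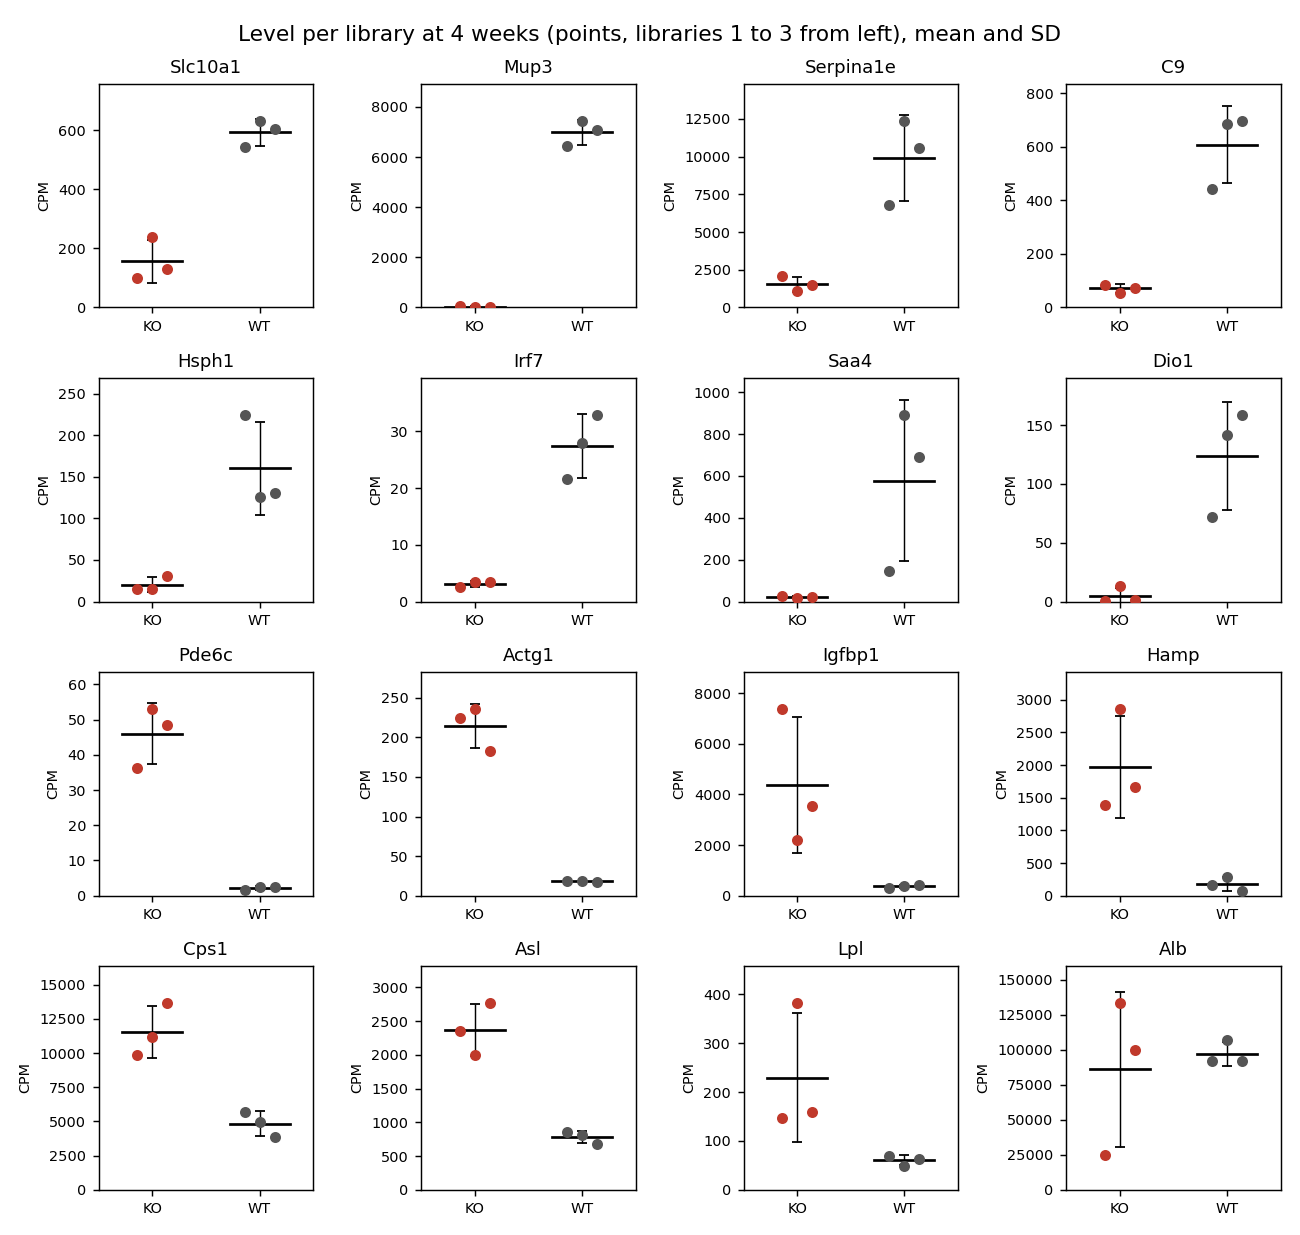
CPM of 16 genes in each 4-week library (points; KO left, WT right; libraries 1 to 3 from left within a group), with the mean (bar) and SD (whisker), on axes from 0. Mup3, C9, Irf7 and Dio1 are low in each KO liver, Pde6c, Actg1 and Igfbp1 are high in each, and Alb differs mainly by KO library 1 at 25110 CPM.

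Many genes of complement fell, the cascade of serum proteins that tags and lyses microbes. Of 31 complement genes tested 12 fell, the other 19 did not pass, and 30 of 31 had a negative log2 fold change (median -0.59). C9 (chr15:6445327-6498751), the pore-forming subunit, had 85.7, 54.6 and 73.7 CPM in KO livers, against 441.4, 683.1 and 695.8 CPM in WT livers (-3.09, SE 0.29, adjusted p = 0.000814). C6, which joins the same pore, had 22.3, 14.5 and 12.4 CPM in KO livers, against 61.0, 73.1 and 66.2 CPM in WT livers (-2.02, SE 0.25, adjusted p = 0.00364). C8a (-2.61, SE 0.46) and C8b (-1.38, SE 0.26), further subunits of the pore, and Clu, an inhibitor of its assembly (-1.34, SE 0.23), fell as well. C8a is also counted in the male-biased list, so these lists overlap. C1qa (-0.63, adjusted p = 0.157), which macrophages make, did not pass but was called lower without KO library 1 (-0.85, adjusted p = 0.0417). The complement score, the mean log2 CPM of members less the WT mean, was -1.14, -0.75 and -0.81 in KO livers, against -0.22, 0.12 and 0.10 in WT livers. Counts lower were 13, 10 and 3 without KO libraries 1, 2 and 3, and 8, 2 and 2 without WT libraries 1, 2 and 3. C9 and C6 kept their calls throughout; Clu, C8a and C8b lost them without KO library 3 or WT library 2 or 3 (adjusted p up to 0.0871).

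Acute phase and clotting genes changed in both directions. Of 30 acute phase genes 5 rose and 4 fell (median -0.04; 6 and 6 without KO library 1). Saa4, a constitutive serum amyloid of lipoproteins, had 26.02, 19.02 and 20.6 CPM in KO livers, against 147.2, 890.9 and 692.7 CPM in WT livers (-4.72, SE 0.62, adjusted p = 0.00465). Saa3, a form made by macrophages and other cells, fell (-3.88, SE 0.48, adjusted p = 0.00364), and Crp, the pentraxin, fell by 1.22 (SE 0.24), while its relative Apcs rose by 1.30 (SE 0.24). Saa1, the inducible form, did not pass (-2.42, adjusted p = 0.115) but was called lower without KO library 1 (-4.32, adjusted p = 0.00321). Serpina1e (chr12:103946931-103958975), an alpha-1-antitrypsin paralog, had 2056, 1083 and 1460 CPM in KO livers, against 6790, 12360 and 10560 CPM in WT livers (-2.69, SE 0.37, adjusted p = 0.00575), and was the called gene with the most counts among those that fell. Its neighbours Serpina1a (0.06, adjusted p = 0.919) and Serpina1b (0.39, adjusted p = 0.325) did not pass, although paralogs may share reads. Serpina12, the adipokine vaspin, fell by 4.29 (SE 0.47, adjusted p = 0.00186). Among 29 clotting genes 4 rose and 2 fell (10 and 4 without KO library 1). Pros1, protein S, rose (1.39, SE 0.23), F3, tissue factor, rose (1.43, SE 0.33), and Proc, protein C, fell (-1.03, SE 0.23). Saa3, Saa4, Serpina1e and Serpina12 kept their calls without each library. Apcs and Pros1 lost theirs without WT library 2 or 3, Crp without KO library 3 or 1 of the WT libraries, whichever it was, and Proc and F3 also without KO library 2, with Proc called without WT library 1 (adjusted p up to 0.142). Without KO libraries 2 and 3 the clotting count higher was 3 and 2, and without WT libraries 1, 2 and 3 it was 2, 1 and 1; the acute phase count higher was 4 and 2, and 2, 2 and 1.

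Several cytosolic chaperones fell; these fold and refold proteins, and many are switched on by the heat shock factor HSF1. Of 18 tested 8 fell and 1 rose (median -0.86; 8 and 1 without KO library 1). Hsph1 (chr5:149614287-149636376), an HSP110 that recharges HSP70, had 15.1, 15.1 and 31.3 CPM in KO livers, against 224.1, 125.2 and 130.8 CPM in WT livers (-2.97, SE 0.37, adjusted p = 0.00365). Hspa1b, the stress-inducible HSP70, had 0.312, 1.70 and 1.18 CPM in KO livers, against 41.5, 8.23 and 13.7 CPM in WT livers (-4.33, SE 0.75, adjusted p = 0.0124). WT library 1 was the highest WT liver for both. Fkbp4, a co-chaperone of steroid receptors, fell (-1.83, SE 0.22, adjusted p = 0.00325), as did Dnajb1, the HSP40 partner (-1.57, SE 0.27, adjusted p = 0.0117), and Stip1, which links HSP70 to HSP90 (-1.56, SE 0.25, adjusted p = 0.00966). Hsf1 itself did not pass (-0.14, adjusted p = 0.748), nor did the mitochondrial chaperones Hspd1 (0.24, adjusted p = 0.678) and Hspe1 (0.54, adjusted p = 0.174). Scores of the list were -1.31, -0.95 and -0.71 in KO livers, against 0.38, -0.17 and -0.21 in WT livers. The count lower was 6 and 6 without KO libraries 2 and 3 and 5, 5 and 4 without WT libraries 1, 2 and 3. Stip1 was lost without WT library 3 and Hspa1b without KO library 3 (adjusted p = 0.0534 and 0.0539). None of 22 genes of the unfolded protein response of the endoplasmic reticulum was called by edgeR (median -0.10); 3 were lower at an unadjusted p under 0.05 and DESeq2 called 1 lower.

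Promoters of these chaperone genes were read from RefSeq (GRCm38.p6), from 250 bases before to 50 after the start site, because the members share a known regulator. The heat shock element was searched on both strands as 3 alternating GAA and TTC units with 2 bases of any kind between units. It lay in the promoters of 4 of 16 listed genes with a sequence, against 0.603% of all 32851 promoters, and 2 of those 4 genes fell. Here and below, a gene was counted if any of its promoters held the element, while the percentage is of single promoters. Windows of 60 bases from 3 genes, chosen after their values were seen, show it in capitals, overlapping copies joined. Hsph1 and Chordc1, a co-chaperone of HSP90 that fell by 1.15, stand beside Hspe1, which did not pass and shares its window with Hspd1 on the other strand.
Hsph1, chr5:149636266-149636325, minus strand: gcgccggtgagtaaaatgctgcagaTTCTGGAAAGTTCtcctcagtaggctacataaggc
Chordc1, chr9:18292244-18292303, plus strand: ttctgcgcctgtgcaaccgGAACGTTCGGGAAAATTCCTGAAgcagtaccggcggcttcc
Hspe1, chr1:55088038-55088097, plus strand: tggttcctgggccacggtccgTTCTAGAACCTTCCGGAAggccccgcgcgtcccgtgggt
A match describes these letters only, and genes with the element were found both among those that fell and among those that did not pass.

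Genes of the interferon response, which cells use to resist viruses, were lower in KO livers. Of 40 tested 26 fell, the other 14 did not pass, and 38 of 40 had a negative log2 fold change (median -1.501). Irf7 (chr7:141262706-141266481), the factor that amplifies type I interferon, had 2.49, 3.39 and 3.54 CPM in KO livers, against 21.5, 27.9 and 32.9 CPM in WT livers (-3.13, SE 0.27, adjusted p = 0.000424). Iigp1, a GTPase against intracellular parasites, had 114.8, 126.6 and 67.0 CPM in KO livers, against 430.7, 364.7 and 378.6 CPM in WT livers (-1.93, SE 0.27, adjusted p = 0.00603). Igtp (-2.28, SE 0.29), a related GTPase, Rtp4 (-2.08, SE 0.28) and Bst2, the tether of budding viruses (-2.08, SE 0.31), fell with separate groups. These 5 genes kept their calls without each library. The count lower was 26, 26 and 10 without KO libraries 1, 2 and 3, and 19, 9 and 6 without WT libraries 1, 2 and 3. Scores were -1.80, -1.20 and -1.38 in KO livers, against -0.09, 0.01 and 0.07 in WT livers.

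The interferon-stimulated element, taken as GAAA, 2 bases of any kind and GAAA again on either strand, lay in the RefSeq promoters of 24 of 37 listed genes with a sequence, against 3.44% of all promoters. Among the 20 called members with a promoter sequence 12 held it, a share no larger than in the whole list. Windows of 60 bases around it are shown for 5 members that fell, chosen after their values were seen to span the forms found. The element is in capitals, written as TTTC on the opposite strand, and adjoining copies run together.
Isg15, chr4:156200856-156200915, minus strand: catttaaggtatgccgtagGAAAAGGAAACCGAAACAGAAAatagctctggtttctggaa
Ifit3, chr19:34583365-34583424, plus strand: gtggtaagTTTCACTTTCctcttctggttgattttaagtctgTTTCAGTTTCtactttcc
Gbp3, chr3:142559977-142560036, plus strand: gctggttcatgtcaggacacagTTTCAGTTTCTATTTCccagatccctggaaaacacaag
Igtp, chr11:58199497-58199556, plus strand: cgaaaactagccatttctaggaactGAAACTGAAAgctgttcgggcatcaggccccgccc
Slfn8, chr11:83020824-83020883, minus strand: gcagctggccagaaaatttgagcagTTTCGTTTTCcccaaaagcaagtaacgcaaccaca
Isg15, a ubiquitin-like modifier, holds 3 overlapping copies and fell by 2.16; Ifit3 holds 2 spaced copies and fell by 2.62; Igtp holds 1 and fell by 2.28. Cxcl10, a chemokine whose promoter also holds 1 copy, did not pass (0.52, adjusted p = 0.644). The element TTCNNNGAA bound by STAT factors was found in 3 of 22 male-biased genes with a promoter sequence, against 8.3% of all promoters, and the sterol element TCACNCCAC in 1 of 17 genes of cholesterol synthesis, against 1.24%.

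Some genes of antigen presentation and markers of resident macrophages also fell. Of 23 antigen presentation genes 5 fell (median -0.64; 8 without KO library 1). H2-Ab1, a class II chain, had 0.779, 2.26 and 3.54 CPM in KO livers, against 12.1, 18.0 and 17.6 CPM in WT livers (-2.89, SE 0.44, adjusted p = 0.00779). Psmb9, a subunit of the immunoproteasome, had 2.18, 2.07 and 1.97 CPM in KO livers, against 9.06, 7.44 and 6.12 CPM in WT livers (-1.85, SE 0.29, adjusted p = 0.00919). H2-Eb1 (-2.34, SE 0.41), Cd74, the class II chaperone (-1.98, SE 0.46), and the peptide carrier Tap1 (-1.48, SE 0.36) fell too, while the class I chain H2-K1 did not pass (-0.62, adjusted p = 0.119). Of 15 Kupffer cell and macrophage markers 4 fell and 1 rose (median -0.63; 5 and 1 without KO library 1), and their summed level was 573.1 to 818.3 CPM in KO livers, against 912.8 to 1069 CPM in WT livers. Folr2 (-2.12, SE 0.32, adjusted p = 0.00765), Clec4f (-1.32, SE 0.25), Timd4 (-1.18, SE 0.23) and Csf1r (-0.99, SE 0.19) fell, but Marco, a scavenger receptor of the same cells, had 80.4, 171.8 and 99.9 CPM in KO livers, against 21.4, 15.2 and 20.2 CPM in WT livers (2.63, SE 0.31, adjusted p = 0.00325). In bulk liver, fewer cells of a type and less RNA per cell cannot be told apart, and the part of cell numbers in the immune lists was not tested. Lymphocyte markers were near the detection limit, 4 of 21 tested, with none called by edgeR or DESeq2 and 1 lower at an unadjusted p under 0.05. H2-Ab1, Psmb9, Marco and Folr2 kept their calls without each library. H2-Eb1 lost its call without WT library 2 or 3, Clec4f, Csf1r and Timd4 also without KO library 3, and Cd74 and Tap1 without that library or 1 of the WT libraries, whichever it was (adjusted p up to 0.125). The antigen count was 6 and 3 without KO libraries 2 and 3 and 3, 2 and 2 without WT libraries 1, 2 and 3. Marker counts lower were 5 and 1, and 4, 1 and 1, in that order.

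**Figure D3:**
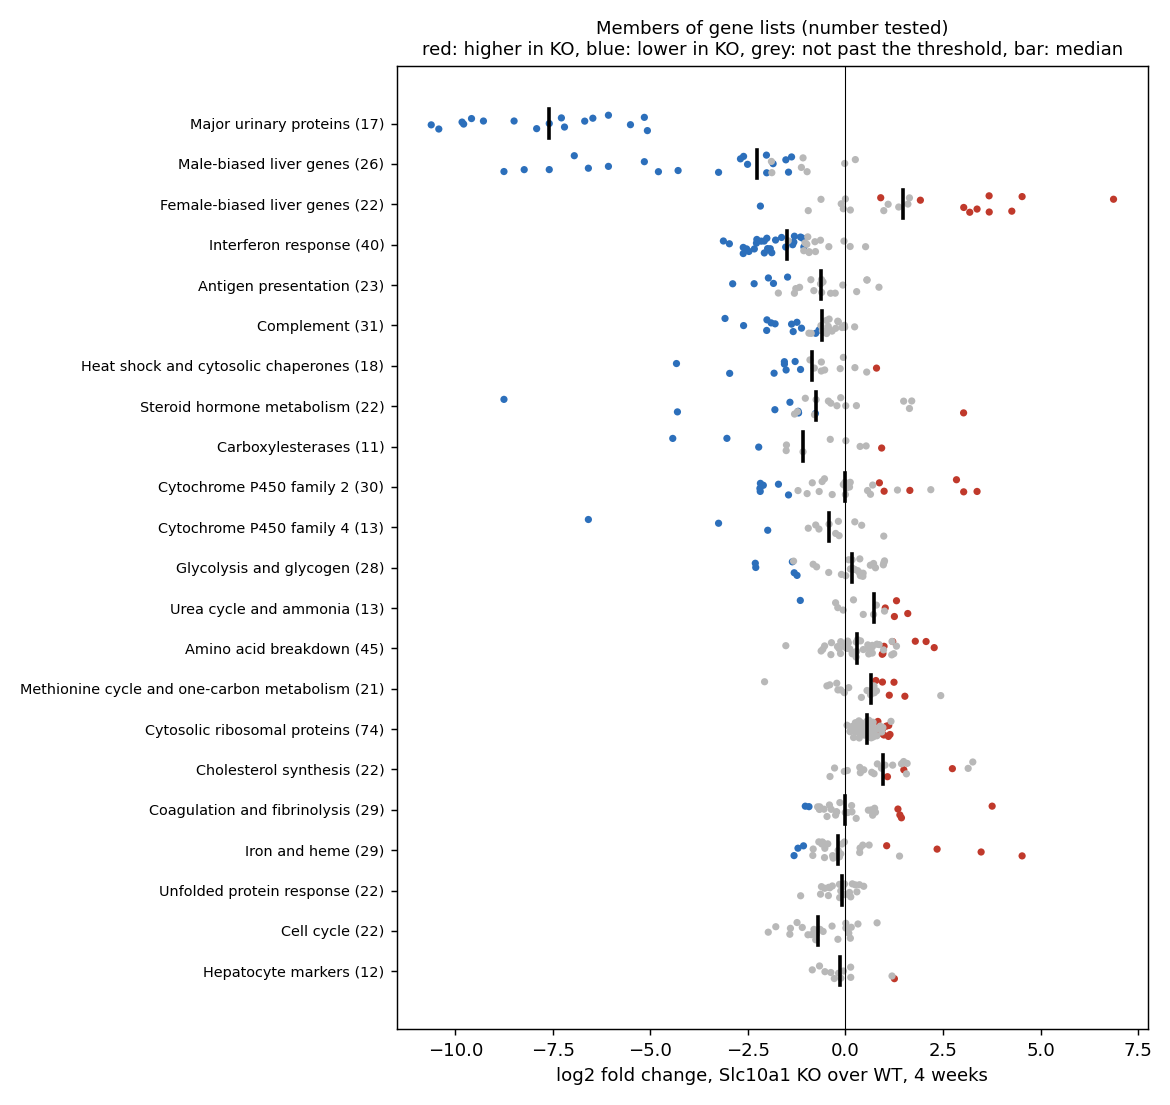
Each point is a member of a gene list at its log2 fold change of Slc10a1 KO over WT at 4 weeks, coloured red if called higher, blue if called lower and grey if not past the threshold; black bars are list medians. Points of the Mup, interferon and complement lists lie mostly left of 0, with medians of -7.59, -1.501 and -0.59, and all 74 ribosomal protein genes lie right of 0.

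Several genes of nitrogen metabolism rose. The urea cycle turns ammonia into urea in periportal hepatocytes, and 4 of 13 genes tested rose and 1 fell (median 0.72; 7 and 1 without KO library 1). Cps1, the first enzyme, had 9825, 11160 and 13640 CPM in KO livers, against 5677, 4982 and 3862 CPM in WT livers (log2 fold change 1.25, SE 0.30, adjusted p = 0.0345). Asl, argininosuccinate lyase, had 2349, 1997 and 2765 CPM in KO livers, against 856.0, 817.1 and 678.3 CPM in WT livers (1.60, SE 0.25, adjusted p = 0.00887). Arg1, the last enzyme, had 3811, 5996 and 6511 CPM in KO livers, against 2449, 2202 and 1942 CPM in WT livers (1.31, SE 0.30, adjusted p = 0.0296), and Gls2, which frees ammonia from glutamine, rose by 1.02 (SE 0.20). All KO livers exceeded all WT livers for these 4. Glul, the pericentral enzyme that binds ammonia to glutamate, fell to 277.4, 222.8 and 270.4 CPM in KO livers, against 433.4, 665.0 and 621.0 CPM in WT livers (-1.16, SE 0.24, adjusted p = 0.0225). The ornithine enzyme Otc did not pass (-0.20, adjusted p = 0.748). Of 45 genes of amino acid breakdown 7 rose and the others did not pass (median 0.31; 10 higher without KO library 1). Got1, the aspartate aminotransferase, had 2976, 1198 and 2608 CPM in KO livers, against 298.0, 679.6 and 424.3 CPM in WT livers (2.27, SE 0.43, adjusted p = 0.0163), and Cth, which makes cysteine from cystathionine, rose by 2.07 (SE 0.36, adjusted p = 0.0125). Ftcd, of histidine breakdown (0.94, SE 0.20), and Bckdhb (0.96, SE 0.18) and Dbt (0.99, SE 0.23), subunits of the branched-chain keto acid dehydrogenase, rose too.

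In the methionine cycle and one-carbon metabolism 5 of 21 genes rose (median 0.64; 8 without KO library 1). Mat1a, the liver synthase of S-adenosylmethionine, had 12230, 13880 and 15730 CPM in KO livers, against 7330, 5903 and 4435 CPM in WT livers (1.24, SE 0.31, adjusted p = 0.04). It was the called gene with the most counts among those that rose. Gnmt (1.12, SE 0.29) and Nnmt (1.52, SE 0.32), methyltransferases that use its product, rose as well. Asns, asparagine synthetase, had 34.1, 33.5 and 23.6 CPM in KO livers, against 3.42, 4.91 and 5.26 CPM in WT livers (2.74, SE 0.26, adjusted p = 0.000883), and its regulator Atf4 rose by 1.00 (SE 0.23, adjusted p = 0.0294), though the other 17 of 19 genes of serine synthesis and ATF4 targets did not pass. Psat1, a serine enzyme of that list, had a log2 fold change of -2.15 (adjusted p = 0.135). Of the nitrogen, methionine and serine genes called above, Asns kept its call without each library. Asl and Cth lost theirs without WT library 2 or 3, Got1 without KO library 3 or WT library 3, and Bckdhb without KO library 3 or WT library 2 or 3. Gls2, Ftcd, Dbt, Nnmt, Gnmt and Atf4 were lost without KO library 3 or 1 of the WT libraries, whichever it was, Glul without KO library 2 or 3 or WT library 2 or 3, and Cps1, Arg1 and Mat1a whichever library other than KO library 1 was left out (adjusted p up to 0.179). Counts higher without KO libraries 2 and 3, then WT libraries 1, 2 and 3, were 2, 1, 1, 0 and 0 in the urea list, 9, 1, 6, 1 and 0 in amino acid breakdown and 3, 0, 2, 0 and 0 in the methionine list.

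Ribosomal protein genes of the cytosol had small positive differences. Of 74 tested 12 rose, and all 74 had a positive log2 fold change, from 0.04 to 1.17 with a median of 0.55, against 0.005 over all genes. Rpl3 had 118.1, 136.6 and 189.8 CPM in KO livers, against 70.6, 60.9 and 75.6 CPM in WT livers (1.10, SE 0.23, adjusted p = 0.0218), and Rps6 had 108.9, 168.2 and 166.0 CPM in KO livers, against 73.0, 83.9 and 72.4 CPM in WT livers (0.95, SE 0.22, adjusted p = 0.032). Scores were 0.27, 0.53 and 0.81 in KO livers, against -0.15, 0.08 and 0.08 in WT livers. The count higher was 37, 5 and 0 without KO libraries 1, 2 and 3, and 1, 0 and 0 without WT libraries 1, 2 and 3, and Rpl3 and Rps6 were among the calls lost. Processed pseudogenes resemble these transcripts and may take part of their reads. Of 76 mitochondrial ribosomal proteins 1 rose and 2 fell (median 0.16; 15 and 1 without KO library 1), and none of 36 nuclear genes of respiratory complex I was called by edgeR or DESeq2 (median 0.05; 3 at an unadjusted p under 0.05; 2 higher by edgeR without KO library 1).

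Of 12 tubulin and actin genes tested 2 rose, both cytoplasmic actins (16.7% called, against 10.8% of all genes). Without KO library 1, 2 were higher and 1 lower. Actg1 (chr11:120345690-120348542), cytoplasmic gamma-actin, had 224.1, 235.5 and 183.1 CPM in KO livers, against 18.1, 18.0 and 17.9 CPM in WT livers (log2 fold change 3.57, SE 0.20, adjusted p = 9.96e-05). WT livers hardly varied, and the call held without each library (adjusted p up to 0.00174). Actb, beta-actin, often used as a reference gene, had 296.5, 276.7 and 211.0 CPM in KO livers, against 130.4, 111.6 and 112.1 CPM in WT livers (1.15, SE 0.21, adjusted p = 0.0147; lost without WT library 2 or 3). Ctsl, the lysosomal protease cathepsin L, had 5294, 2645 and 2976 CPM in KO livers, against 903.7, 705.6 and 675.0 CPM in WT livers (2.26, SE 0.34, adjusted p = 0.00754; lost without WT library 2 or 3). Matrix genes went the other way, with 6 of 23 lower (median -0.70; 8 without KO library 1). Col14a1 (-1.41, SE 0.25) and the type I chain Col1a2 (-1.25, SE 0.27) fell, whereas Dcn, decorin, a stellate cell marker, rose (0.96, SE 0.20). The other 14 of 15 stellate cell markers did not pass, and 5 of 15 had a positive log2 fold change (median -0.12). Matrix calls lower were 7 and 0 without KO libraries 2 and 3 and 3, 0 and 0 without WT libraries 1, 2 and 3.

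**Figure D4:**
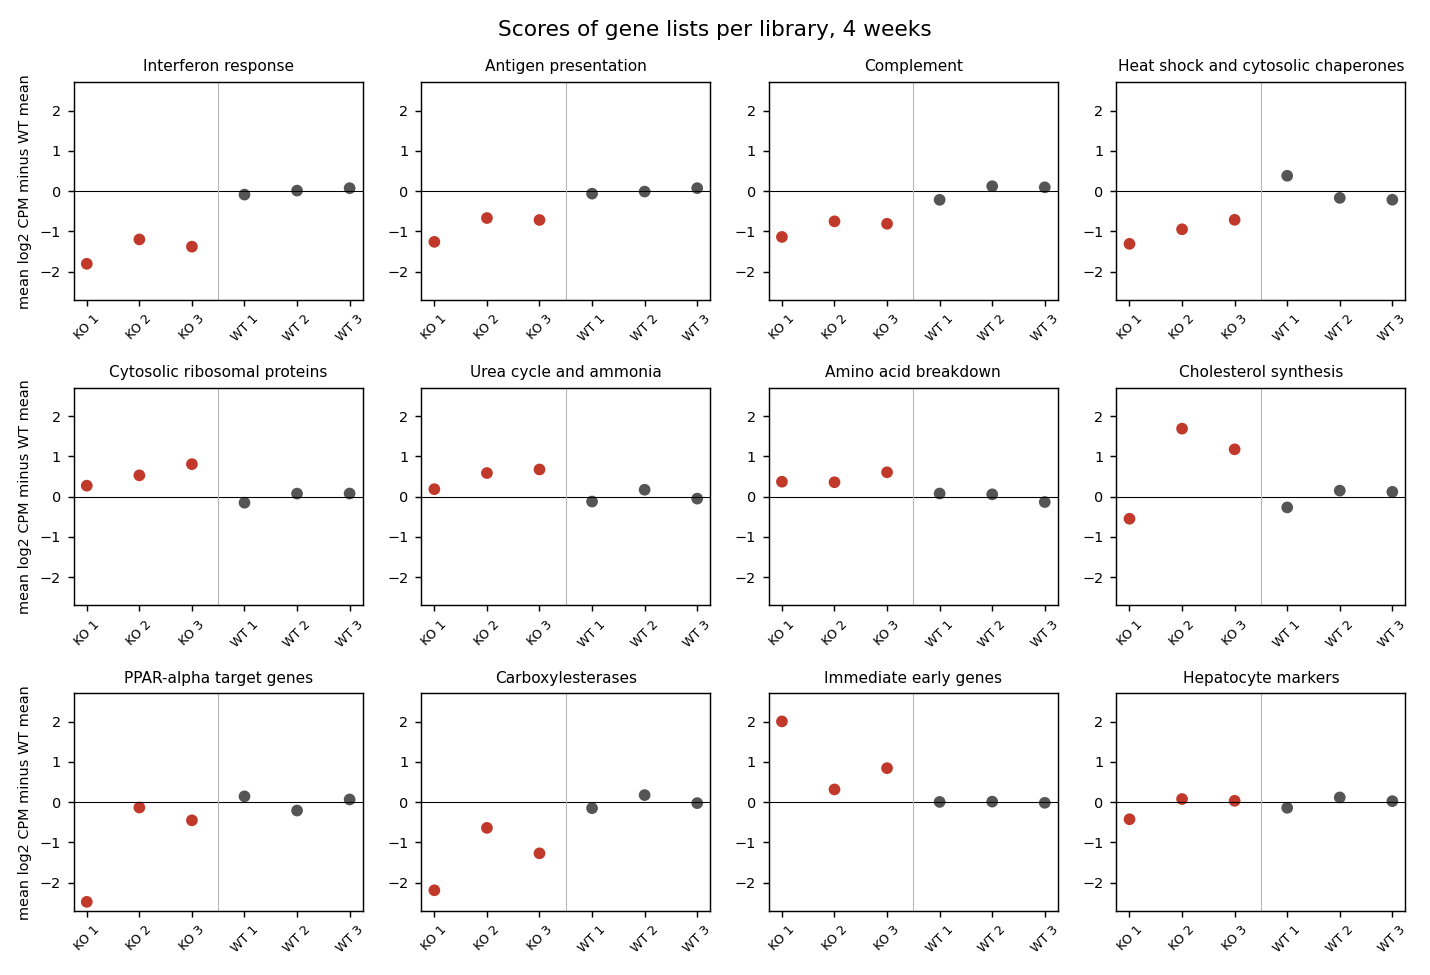
Score of 12 gene lists in each 4-week library (mean log2 CPM of the members tested less the WT mean; red, KO libraries 1 to 3; grey, WT libraries 1 to 3). Interferon, antigen presentation, complement and heat shock scores are lower in all KO livers than in all WT livers, while KO library 1 departs from KO libraries 2 and 3 in cholesterol synthesis, PPAR-alpha targets and immediate early genes.

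Regulated genes of fuel metabolism were among the calls. Of 28 genes of glycolysis and glycogen 5 fell (median 0.18; 5 higher and 4 lower without KO library 1). Ppp1r3c, which draws phosphatase to glycogen, fell by 2.30 (SE 0.48), and Pfkl (-1.36, SE 0.29) and Pfkfb3 (-1.24, SE 0.30), of the phosphofructokinase step, fell too. Hk3, a hexokinase of blood cells, was called lower, yet lost its call whichever library was left out. Mlxipl, the glucose-sensing factor ChREBP, fell (-1.31, SE 0.23, adjusted p = 0.0129), and Gcgr, the glucagon receptor, fell to 66.1, 88.3 and 66.7 CPM in KO livers, against 161.9, 174.4 and 200.8 CPM in WT livers (-1.28, SE 0.20, adjusted p = 0.00933). Ppargc1a, the coactivator PGC-1alpha of fasting, rose to 96.1, 129.4 and 130.4 CPM in KO livers, against 38.8, 42.9 and 35.4 CPM in WT livers (1.60, SE 0.20, adjusted p = 0.00367), but the gluconeogenic enzymes Pck1 (0.02, adjusted p = 0.969) and G6pc (0.76, adjusted p = 0.268) did not pass. In lipid metabolism, Lpl, lipoprotein lipase, an enzyme high in newborn liver, had 147.7, 381.6 and 160.1 CPM in KO livers, against 69.8, 49.1 and 63.3 CPM in WT livers (1.92, SE 0.38, adjusted p = 0.0186), and Lipc, hepatic lipase, fell (-1.51, SE 0.24, adjusted p = 0.00881). Hilpda, an inhibitor of lipolysis on lipid droplets, rose (2.68, SE 0.28, adjusted p = 0.00152). Pparg, the lipogenic receptor, rose to 14.8, 23.9 and 19.7 CPM in KO livers, against 4.62, 2.85 and 2.56 CPM in WT livers (2.54, SE 0.31, adjusted p = 0.00337).

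In some fuel lists the score of KO library 1 stood apart from those of KO libraries 2 and 3. Calls over all genes also rose without it. In cholesterol synthesis 3 of 22 genes rose with all 6 libraries and 16 without KO library 1 (median 0.97 and 1.30), with scores of -0.55, 1.69 and 1.17 in KO livers, against -0.27, 0.15 and 0.12 in WT livers. Among 35 PPAR-alpha targets, 3 fell and 2 rose (14.3% called, against 10.8% of all genes). Without KO library 1, 8 fell and 6 rose (median -0.67 with all 6 libraries and -0.23 without it). The PPAR-alpha score of KO library 1 was -2.47, against -0.13 and -0.45 in KO libraries 2 and 3 and -0.21 to 0.14 in WT livers. Immediate early genes scored 2.003 in KO library 1, 0.32 and 0.84 in KO libraries 2 and 3 and -0.02 to 0.01 in WT livers. Of 18 tested 2 rose, or 11.1% (median 1.17, or 0.45 without KO library 1). Ppargc1a, Hilpda and Pparg kept their calls without each library, while Gcgr and Lipc were lost without WT library 3, Lpl without WT library 2 or 3, Mlxipl without KO library 3 or WT library 3, Ppp1r3c without KO library 2 or WT library 2 or 3, Pfkfb3 without KO library 3 or WT library 2 or 3, and Pfkl without KO library 2 or 3 or WT library 2 or 3 (adjusted p up to 0.145). Glycolysis calls lower were 1 and 1 without KO libraries 2 and 3 and 4, 0 and 0 without WT libraries 1, 2 and 3; cholesterol calls were 1 and 1, and 1, 0 and 0; PPAR-alpha calls lower were 6 and 0, and 1, 0 and 0.

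Hepcidin, the peptide hormone that blocks iron export into blood, was high in KO livers. Hamp (chr7:30942368-30944032) had 1388, 2855 and 1665 CPM in KO livers, against 167.0, 283.8 and 80.1 CPM in WT livers (log2 fold change 3.48, SE 0.50, adjusted p = 0.0068). Hmox1, which breaks down heme, rose to 80.1, 147.9 and 63.7 CPM in KO livers, against 17.8, 21.4 and 18.1 CPM in WT livers (2.35, SE 0.32, adjusted p = 0.0056). Both groups stood apart for each. The upstream signal Bmp6 (0.61, adjusted p = 0.382) and the target Id1 (1.39, adjusted p = 0.168) did not pass. Of 29 iron and heme genes 4 rose and 3 fell (median -0.20; 4 and 4 without KO library 1). Erythroid transcripts were lower: Alas2, the red cell enzyme of heme synthesis, had 11.5, 9.98 and 16.7 CPM in KO livers, against 56.9, 65.8 and 66.9 CPM in WT livers (-2.31, SE 0.24, adjusted p = 0.00148), and 4 of 9 erythroid markers fell while Klf1, an erythroid factor, rose (2.43, SE 0.47). Summed over the 9 markers, levels were 296.8, 222.3 and 304.2 CPM in KO livers, against 592.6, 473.2 and 396.4 CPM in WT livers. The part of blood left in the tissue was not tested. Of 11 fetal and neonatal genes 4 rose (median 1.12; 6 without KO library 1): Tff3 (3.26, SE 0.60), a trefoil peptide, Lpl, Igf2bp3 (1.72, SE 0.36), a fetal RNA-binding protein, and Gpc3 (1.32, SE 0.28), a glypican. Afp, the fetal albumin, had 11, 23 and 6 counts in KO livers, against 7, 4 and 5 counts in WT livers and was too low to test. None of 22 cell cycle genes was called by edgeR (median -0.70); 3 were lower at an unadjusted p under 0.05 and DESeq2 called 2 lower. Hamp, Hmox1 and Alas2 kept their calls without each library. Klf1 was lost without WT library 1 or 3, Tff3 without KO library 3 or WT library 2, Igf2bp3 whichever WT library was left out and Gpc3 without KO library 3 or WT library 2 or 3 (adjusted p up to 0.118). Without KO libraries 2 and 3, 4 and 2 fetal genes were called, and 4, 0 and 1 without WT libraries 1, 2 and 3. The erythroid count lower was 2 and 3, and 1, 1 and 1; the iron count higher was 4 and 2, and 2, 2 and 2.

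Set beside later ages, the size of the KO effect differed for some genes. Each age was fitted alone, and the difference in effect was tested in 1 fit of all 22 libraries. That test called 52 of 15877 genes (0.328%) for 8 weeks and 718 (4.52%) for 20 months, each against 4 weeks. The fits of each age alone called 1200 genes at 4 weeks, 4 of 14522 tested at 8 weeks and 0 of 13966 at 20 months. Over the core panel and the 24 most changed genes, the smallest adjusted p of the difference from 8 weeks was that of Zc3h6 (0.0534). Beyond that panel this difference passed for other genes, among them Folr2 (-2.21, adjusted p = 0.0187) and Stip1 (-1.57, adjusted p = 0.0497). It also passed for Hamp (3.15) and Klf1 (2.37, adjusted p = 0.0497 for each). Mup3 had a log2 fold change of -7.59 at 4 weeks, -1.22 at 8 weeks and 0.86 at 20 months, and the differences from 4 weeks did not pass (adjusted p = 0.183 and 0.0515). The 8-week value is a group mean over KO livers that were far apart: Mup3 had a lowest, median and highest level of 12.5, 287 and 7590 CPM in the 6 KO livers, against 4980, 5990 and 6380 CPM in the 4 WT livers (SE of the log2 fold change 1.51). The KO median thus lay below the lowest WT liver, while the highest KO liver lay above the highest WT liver. Elovl3 had log2 fold changes of -8.23, -0.02 and 0.79 (adjusted p = 0.231 and 0.109), with the same division at 8 weeks. Its lowest, median and highest level was 0.0867, 0.220 and 211 CPM in 8-week KO livers, against 47.8, 51.2 and 68.3 CPM in 8-week WT livers (SE 1.69). At 20 months 1 WT liver was low for each gene. Lowest, median and highest Mup3 was 575, 3920 and 5570 CPM in WT livers, against 5460, 5870 and 6860 CPM in KO livers. For Elovl3 these were 7.43, 76.3 and 135 CPM, against 104, 135 and 140 CPM. The part of the low WT liver in the 20-month values was not tested. Slc10a1 had log2 fold changes of -1.93, -2.72 and -1.49, and the differences from 4 weeks did not pass (adjusted p = 0.34 and 0.564). In the fits of each age alone it was called at 8 weeks (adjusted p = 9e-05) and not at 20 months (adjusted p = 0.821). Against 20 months, the effect at 4 weeks was more positive for Zc3h6 (difference 4.48, adjusted p = 0.00408), Smoc2 (5.38, adjusted p = 0.016), Tppp3 (8.31, adjusted p = 0.0215), Bmper (8.48, adjusted p = 0.0262), Igdcc4 (12.98, adjusted p = 0.00996) and Ddx3y (0.90, adjusted p = 0.0356). Ddx3y, a Y-linked RNA helicase, had 167.5, 161.4 and 141.6 CPM in KO livers, against 82.8, 87.7 and 84.4 CPM in WT livers at 4 weeks (0.88, SE 0.18, adjusted p = 0.0193, lost whichever WT library was left out).

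Among lists, the difference from 20 months was called for 12 of 49 interferon genes, 12 of 76 cytosolic ribosomal genes, 10 of 32 acute phase genes and 5 of 20 chaperones, beside 4.52% of all genes. Medians below cover the members tested at each age, which differ, such as 40, 49 and 47 interferon genes. Median effects of the interferon list were -1.501 at 4 weeks, -0.13 at 8 weeks and 0.15 at 20 months. Those of the chaperones were -0.86, 0.003 and -0.12. The acute phase list had -0.04, -0.05 and -1.39, so its median lay furthest from 0 at 20 months, where 0 of its members were called. WT livers of that age were far apart for some members. Lowest, median and highest Apcs was 73, 461 and 1020 CPM in WT livers, against 51, 67.2 and 95.5 CPM in KO livers. For Crp the WT livers were closer, at 595, 651 and 807 CPM. The part of this spread in the list median was not tested. The female-biased list had 1.48, 2.11 and 0.30. Between 4 and 8 weeks the difference was called for 0 of 49 interferon genes and 0 of 76 cytosolic ribosomal genes. It was called for 1 of 32 acute phase genes and 1 of 20 chaperones. In the female-biased list 0 of 30 genes were called against either later age. The 4-week libraries are paired-end and of lower depth, the later ones single-end, so age and library type cannot be told apart. Without 1 of the 4-week libraries the count against 8 weeks was 27 and 29 (KO libraries 2 and 3) and 13 and 10 (WT libraries 2 and 3), and that against 20 months was 247 and 164 (WT libraries 2 and 3).

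**Figure D5:**
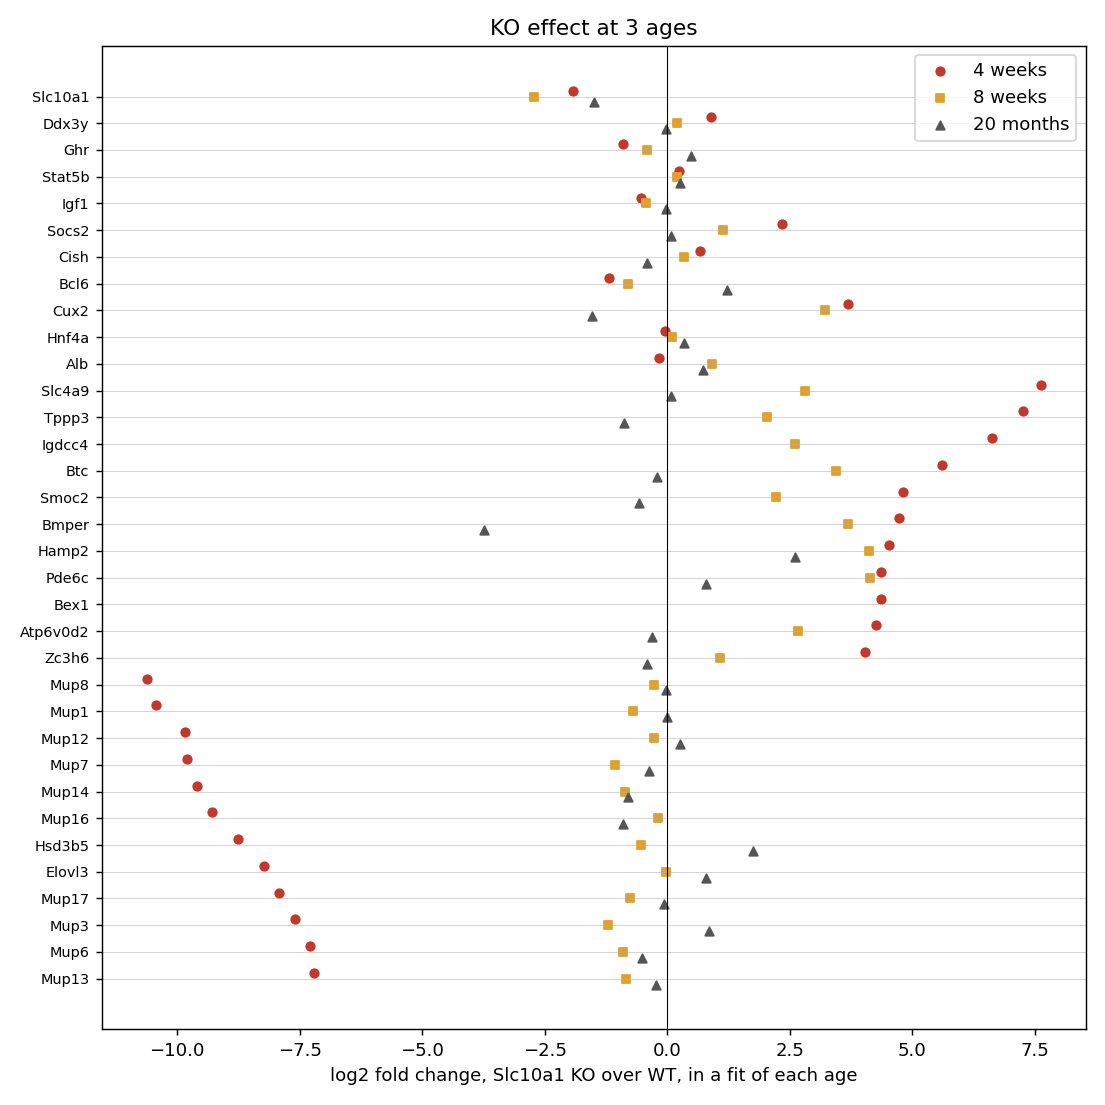
Log2 fold change of Slc10a1 KO over WT at 4 weeks (circles), 8 weeks (squares) and 20 months (triangles) for genes of the core panel and the most changed genes of the 4-week comparison, each age in its own fit; genes too low at an age have no symbol. Mup genes lie between -10.62 and -7.20 at 4 weeks and between -1.22 and 0.86 at the later ages. Mup8, Mup1, Mup12 and Mup16 had no count in any 4-week KO liver, so their 4-week values are not measured beyond the count limits. The 8-week values are group means: for each Mup gene shown, the KO median lay below every WT liver and the highest KO value above them. At 20 months 1 WT liver lay far below the WT median for each Mup gene shown. Slc10a1 lies below 0 at all 3 ages.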

How the data were processed

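The deposited tables list raw counts by Ensembl gene, 1 per library. HISAT2 2.0.4, HTSeq 0.6.1p1 and the build GRCm38 are named in the submitters' processing notes. Which annotation release and strand setting the authors used is not given in the sources used here, so overlapping genes on opposite strands cannot be separated, and near-identical copies (Mup, Serpina1, globin genes) may share reads. The names of the deposited tables mark 4-week libraries as paired-end and the others as single-end. Summary lines that name no gene were dropped. Symbols came from GENCODE M21 for 47310 of 47729 genes.

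Genes passing filterByExpr were scaled by TMM and tested with edgeR 4.0.16 (R 4.3.3), two-sided, by quasi-likelihood, with Benjamini-Hochberg adjustment over all genes and a threshold of 0.05. The SE is the log2 fold change divided by the root of the F statistic. The biological coefficient of variation was 0.266. Scores used a prior count of 2. Limits from counts cover counting error only. Libraries of a group differed beyond sampling noise (chi-square over degrees of freedom at least 8.34).

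Members, 78 lists and the naming rule were chosen with earlier results of these data known, and Cyp2f2 was taken out of the pericentral list after its values were seen. The rule names a core panel, the 12 highest and 12 lowest called genes (mean log2 CPM at least 1, groups apart, protein coding, outside sulfation and bile acid lists), the 10 called genes with the most counts each way, and up to 5 members of a list by adjusted p. Members named without a call, other than the core panel, were picked after their values were seen. The heat shock element was added after seeing the data. Lists are described by counts and medians, without a set test, and a gene can belong to more than 1 list. DESeq2 1.42.0, other scalings and filters, a fit of all 22 libraries, a replicate block and fits without each library were alternatives. A few genes that the rule names are not reported here.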

Additional observations from a re-analysis of the deposited data

Results flagged for a closer look

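In the core panel and the most changed genes, the KO effect at 4 weeks differed from that at 20 months for 6 genes. The effect is the log2 fold change of KO over WT, tested in the fit of all 22 libraries. The differences, 4 weeks minus 20 months, were 12.976 for Igdcc4, 8.48 for Bmper, 8.315 for Tppp3, 5.382 for Smoc2, 4.481 for Zc3h6 and 0.903 for Ddx3y. At 20 months Zc3h6 had 2.41 to 5.12 CPM in KO livers, against 3.72 to 6.71 CPM in WT livers, and Smoc2 had 4.37 to 6.35 CPM in KO livers, against 4.50 to 11.1 CPM in WT livers. Igdcc4 and Bmper were high in 1 WT liver at 20 months: Igdcc4 had 0.0894 to 0.174 CPM in KO livers, against a median of 0.826 and a highest value of 28.6 CPM in WT livers, and Bmper 0.781 to 0.934 CPM in KO livers, against a median of 3.51 and a highest value of 28.9 CPM in WT livers. Tppp3 had 0.340 to 0.824 CPM in KO livers, against 0.111 to 2.22 CPM in WT livers. Ddx3y had 62.3 to 71.8 CPM in KO livers, against 56.1 to 78.9 CPM in WT livers. The part of the single high WT liver in the differences of Igdcc4 and Bmper was not tested.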

How the results depend on the processing

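Against 576 genes higher and 624 lower, library totals alone gave 379 and 527, no low-count filter 1033 and 1015, and the fit of all 22 libraries 914 and 855; DESeq2 gave 813 and 757. Leaving out 1 library gave 65 to 1046 higher and 119 to 966 lower. Replicate numbers are not stated to pair the samples. Deviations of same-numbered libraries from their group means correlated at -0.068, 0.016 and 0.015. With 3 libraries per group these values cannot settle whether samples were paired. The replicate block called 242 higher and 295 lower. For the difference in KO effect between 4 and 8 weeks (52 genes), RLE size factors gave 30, library totals 23, DESeq2 376 and leaving out 1 library 10 to 59. Between 4 weeks and 20 months (718 genes), DESeq2 gave 1521 and leaving out 1 library 164 to 690. The cause was not tested. No gene named by the rule reversed; the number whose call was lost was 2 with DESeq2, 21 with library totals, 89 in the fit of all libraries, 80 with the block, and 3 without KO library 1 to 146 without WT library 3. Depth limits the low genes: 11144 of the genes counted could be tested.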
